A study of Homo sapiens with 32 samples.

Results

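RNA of the insulin-like growth factor (IGF) axis was followed in Ewing sarcoma cells that lack a cohesin subunit or a subunit of Polycomb repressive complex 2 (PRC2). The set was fixed by symbol as the ligands IGF1 and IGF2, the receptors IGF1R and IGF2R, and the binding proteins IGFBP2 to IGFBP7, which makes 10 genes of the 28278 gene symbols in the count tables. All 10 were also found, by their Ensembl genes, among the 60107 genes of the knockdown table.

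IGF1 and IGF2 are secreted peptides that signal through the tyrosine kinase IGF1R, whereas IGF2R binds IGF2 and carries it to the lysosome for degradation. The binding proteins hold the ligands in the medium and around cells, and depending on the protein and on the proteases that cleave it they restrain ligand access to the receptor or release ligand beside it. Ewing sarcoma depends on IGF1R signalling in many models, IGFBP3 is a gene that EWS::FLI1 represses, and antibodies to IGF1R have been tried in patients.

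The data were 32 RNA-seq libraries of 3 established Ewing sarcoma lines. In A673 cells, experiment 1 held 3 control libraries and 2 STAG2 KO libraries. Experiment 2 held 3 control libraries and 3 clones each of STAG2 KO, EZH2 KO and SUZ12 KO, and experiment 3 held 2 control libraries and 3 STAG1 KO libraries. In experiment 4, A673 cells were mock transfected (siC, 3 libraries) or transfected with siRNA against STAG2 (siSTAG2, 3 libraries). The controls of experiments 1 to 3 were the WT clone, an unedited clone with an inducible Cas9 at AAVS1 from which every KO clone was derived, and the parental line without Cas9. A clonal line stands for 1 cell, and the WT clone is itself a single clone. SK-N-MC (WT and STAG2 KO) and A4573 gave 1 library a condition. A4573 lacks STAG2, and its edited cells carry a knock-in that restores it (STAG2 KI). The A4573 library without the knock-in is labelled WT and is called A4573 parental below. All genotypes of these 2 lines are labelled with the inducible Cas9 as well, so A4573 parental does not mean free of Cas9. The labels do not say whether libraries of a group came from separate cultures, so p-values measure the spread between these libraries.

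Libraries of the A673 clones held 15734628 to 20663679 counts, those of the isogenic pairs 29322507 to 32261248, and those of the knockdown 6852340 to 8184632 reads recovered from the deposited values. STAG2 stood at 42.2 to 183 normalized CPM (counts scaled to a common library size) in the 5 STAG2 KO libraries and at 255 to 358 in the 6 controls of their experiments. The 183 was STAG2 KO 24 of experiment 1, and the next highest library held 68.9. In the pairs STAG2 was at 184 CPM in SK-N-MC STAG2 KO against 293 in WT, and at 34.1 in A4573 parental against 86.9 in STAG2 KI. Below, each pair is called without and with STAG2 by genotype. EZH2 was at 28.3 to 54.9 in EZH2 KO against 171 to 193, SUZ12 at 11.3 to 20.5 in SUZ12 KO against 59.9 to 66.6, and STAG2 at 144 to 180 normalized reads in siSTAG2 against 992 to 1090. One library labelled STAG1 KO, number 1, held STAG1 at 61.1 CPM, inside the control range of 57.4 to 69.1, while the other 2 held 33.0 and 15. Of 10 Ewing sarcoma markers, 9 averaged over 1 CPM in every arm of the 26 libraries of the count tables, where CD99 was listed at 0 throughout. In the knockdown table all 10 passed the filter. The A673 libraries also carried mesenchymal stromal genes, with FN1 at up to 14693 CPM. Libraries a and b of the WT clone in experiment 1 differed less from each other than the other pairs of a group in experiments 1 to 3 (mean chi-square per gene 1.31, against 8.82 to 131). Pairs within an arm of the knockdown gave 1.87 to 10.4.

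Gene starts of 3 binding proteins are shown because results below turn on them: IGFBP2 and IGFBP6 after loss of STAG2, and IGFBP4 after loss of PRC2. Each is the RefSeq promoter (build GRCh38.p14) from 250 bases before to 50 after the start, 5′ to 3′ on the strand of the gene, with every CG pair in capitals.
IGFBP2 (chr2:216633170-216633469, plus strand): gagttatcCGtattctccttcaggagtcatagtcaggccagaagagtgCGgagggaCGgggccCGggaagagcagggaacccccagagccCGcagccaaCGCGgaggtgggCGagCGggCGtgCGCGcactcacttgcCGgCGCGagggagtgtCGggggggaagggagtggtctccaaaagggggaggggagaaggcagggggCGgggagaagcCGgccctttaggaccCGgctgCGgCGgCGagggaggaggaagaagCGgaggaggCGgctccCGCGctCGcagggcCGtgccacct
IGFBP4 (chr17:40443200-40443499, plus strand): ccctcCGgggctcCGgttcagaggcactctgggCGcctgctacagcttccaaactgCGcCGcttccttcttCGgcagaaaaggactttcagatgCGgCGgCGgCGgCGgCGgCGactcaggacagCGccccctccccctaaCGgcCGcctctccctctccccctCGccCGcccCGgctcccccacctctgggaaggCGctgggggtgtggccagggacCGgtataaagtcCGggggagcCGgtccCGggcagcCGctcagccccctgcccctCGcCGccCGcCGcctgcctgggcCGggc
IGFBP6 (chr12:53097417-53097716, plus strand): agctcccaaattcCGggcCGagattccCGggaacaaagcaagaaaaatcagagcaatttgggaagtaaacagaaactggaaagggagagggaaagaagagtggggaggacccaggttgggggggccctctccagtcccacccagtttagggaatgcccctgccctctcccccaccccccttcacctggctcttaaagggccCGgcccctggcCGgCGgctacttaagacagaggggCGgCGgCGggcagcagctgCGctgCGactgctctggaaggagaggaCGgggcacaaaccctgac
They hold 28, 30 and 12 CG pairs, where the median of 35116 RefSeq promoters of the same length is 14 and the quartiles are 4 and 28. Of the 10 genes, 8 were matched in that table. IGF1R (55 CG pairs), IGF2R (41) and IGFBP3 (36) lie above the upper quartile, and IGFBP5 holds 9. The entries for IGF1, neither of which is at the start of its main transcript, hold 0 and 1. The letters GGAA, the core that ETS factors such as EWS::FLI1 recognise, occur on either strand 4 times in the IGFBP2 promoter, 3 times in that of IGFBP4 and 8 times in that of IGFBP6, and at least once in 95.5% of all promoters. The double GGAAGGAA, which contains GGAA, was found in 0 of the promoters of the matched genes and in 3.67% of all promoters.

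In A673 controls the axis was dominated by a single binding protein. Per kilobase of the main transcript, IGFBP2 stood at 678 ± 144 CPM (SD, n = 8). IGF2R followed at 15.8 ± 2.48 and IGFBP4 at 7.92 ± 2.33, which did not overlap each other. IGF1R (5.29 ± 2.07), IGFBP5 (4.62 ± 3.47), IGF1 (2.26 ± 0.379) and IGFBP6 (1.88 ± 0.590) came next, each overlapping its neighbours in this order. IGFBP7, IGFBP3 and IGF2 averaged 0.279, 0.203 and 0.0157 and overlapped. IGF2 had between 0 and 5 reads in each of the 8 control libraries. IGFBP2 thus made up 97.5% to 98.2% of the summed IGFBP2 to IGFBP7 level per kilobase in the control libraries, as the stacked plot of shares shows.

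**Figure D1:**
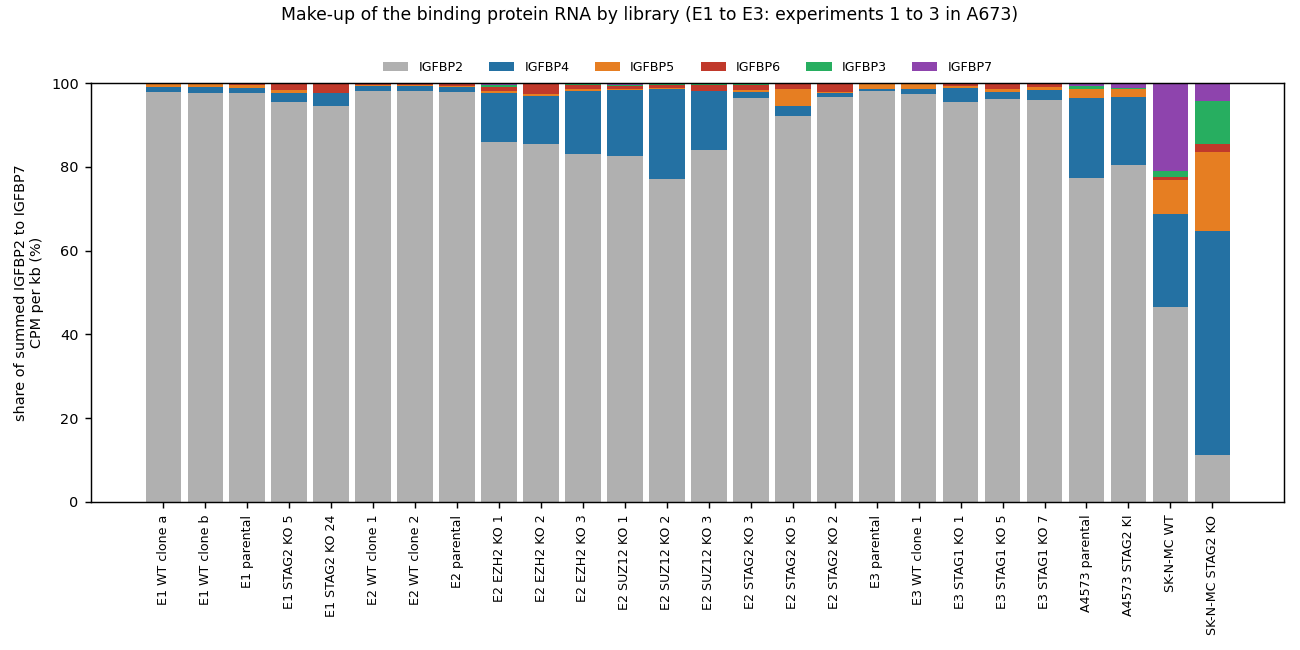
Stacked bars give, for each library of the count tables, the share (%) of each binding protein in the summed IGFBP2 to IGFBP7 level per kilobase of the main transcript. IGFBP2 fills 97.5% to 98.2% of the bar in A673 controls, 77.1% to 86.0% after loss of EZH2 or SUZ12, and 46.5% and 11.3% in SK-N-MC WT and STAG2 KO.

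The same order per kilobase did not hold in the other lines. In SK-N-MC WT, IGFBP2 (114 CPM per kilobase) was followed by IGFBP4 (54.6) and IGFBP7 (51.3), and IGF1 stood at 6.38. In A4573 parental cells IGFBP2 was at 179, IGFBP4 at 44.7 and IGF2R at 10.54. These are single libraries, so no spread can be given for them.

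The question for the PRC2 arms was which of these genes depend on EZH2, the methyltransferase of the complex, or on SUZ12, its scaffold. IGFBP4 was the member that changed with the smallest adjusted p in both knockouts, and the ligand IGF1 rose with it. IGFBP2 fell in both. Of the 10 members tested, 5 were called after EZH2 KO (4 higher, 1 lower), where 15.7% of 15130 genes tested were called, and 4 after SUZ12 KO (3 higher, 1 lower), where 20.6% were. Most calls over all genes were also higher, 1819 against 558 lower after EZH2 KO and 2224 against 888 lower after SUZ12 KO. Calls are at an adjusted p under 0.05 (edgeR quasi-likelihood test, Benjamini-Hochberg over all genes tested). The median log2 fold change of the 10, IGF2 included, was 1.19 and 0.89, and that of all genes 0.04 and 0.01. Without IGF2 the middle member was IGFBP7 after EZH2 KO (log2 0.99) and IGFBP6 after SUZ12 KO (log2 0.84). Both comparisons use the same 3 control libraries, and IGF2 passed the filter on low counts through its knockout libraries. The calls of IGF2, counted among the 5 and the 4, therefore carry no weight of their own. In bulk RNA, fewer cells of a type and less RNA per cell cannot be told apart.

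IGFBP4 (chr17:40443450-40457725, plus strand) encodes a binding protein that inhibits IGF action until the protease PAPPA cleaves it. Its level was 21.6 and 15.8 CPM in the WT clone libraries and 12.5 in the parental library. It was 124, 120 and 146 CPM in EZH2 KO and 156, 237 and 127 CPM in SUZ12 KO. All 6 knockout libraries lay far above the 3 controls. The fitted change was 8.31-fold for EZH2 KO (log2 3.06 ± 0.31 SE, adjusted p = 0.000117 by edgeR) and 10.9-fold for SUZ12 KO (log2 3.45 ± 0.31, adjusted p = 4.66e-05 by edgeR). Its share of the binding protein level per kilobase was 1.16% to 1.33% in the controls, 11.6% to 15.1% in EZH2 KO and 13.9% to 21.5% in SUZ12 KO. The WT clone libraries of experiments 1 to 3 held more IGFBP4 than the parental ones as well, but the difference was 1.65-fold (adjusted p = 0.0257 by edgeR). That call was lost without WT clone a or b of experiment 1, or without WT clone 1 or the parental library of experiment 2 (adjusted p up to 0.103).

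IGF1 (chr12:102395874-102481744, minus strand), the ligand of IGF1R, stood at 18.1, 18.7 and 18.6 CPM in the controls. EZH2 KO clones held 49.4, 41.8 and 45.6 CPM and SUZ12 KO clones 27.4, 55.6 and 38.5 CPM. The groups did not overlap, although the first SUZ12 KO clone was nearer to the controls than the rest. The change was 2.62-fold after EZH2 KO (log2 1.39 ± 0.23, adjusted p = 0.00224 by edgeR) and 2.30-fold after SUZ12 KO (log2 1.20 ± 0.23, adjusted p = 0.00351 by edgeR). Exons of IGF1 share bases with HELLPAR on the other strand, and the libraries were not directional.

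IGF2 (chr11:2129112-2158391, minus strand) had 0 reads in all 3 controls of experiment 2. The EZH2 KO clones held 4, 1 and 12 reads and the SUZ12 KO clones 12, 16 and 10. Against a floor of 3 reads per control library, the mean of SUZ12 KO was at least 3.49-fold higher. That of EZH2 KO was at least 1.54-fold higher. Both were called (adjusted p = 0.0105 and 0.0405 by edgeR). IGF2 entered the fit through knockout libraries, where it is high, so these calls carry no weight of their own. The levels were traces: the highest of the 6 libraries stood at 0.721 CPM, and the WT clone libraries of experiment 1 themselves held 5 and 4 reads. The EZH2 KO call was lost with any single library left out other than EZH2 KO 2. IGF2 overlaps exons of INS-IGF2 and IGF2-AS, from which its reads may not be separable.

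IGFBP2 (chr2:216632828-216664436, plus strand), which binds both ligands and is abundant in fetal and tumour cells, moved the other way. It was 1022, 854 and 675 CPM in controls, 588, 564 and 516 in EZH2 KO, and 524, 545 and 489 in SUZ12 KO. Every knockout library was below every control, with the parental control the nearest. The change was -0.52 ± 0.16 on the log2 scale for EZH2 KO (adjusted p = 0.0485 by edgeR) and -0.64 ± 0.16 for SUZ12 KO (adjusted p = 0.0164 by edgeR). Without the first WT clone library neither passed. The EZH2 KO call was lost with any single library left out other than the parental one, and the SUZ12 KO call also without SUZ12 KO 1.

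IGFBP6 (chr12:53097436-53102345, plus strand), which prefers IGF2 over IGF1, was 1.81, 1.79 and 3.05 CPM in controls. It stood at 4.41, 10.5 and 4.22 CPM in EZH2 KO and at 2.57, 3.70 and 5.10 CPM in SUZ12 KO. It was called after EZH2 KO (log2 1.61 ± 0.46, adjusted p = 0.0356 by edgeR), where the second clone stood apart, and without that clone it was not (log2 1.03), nor without any of the 3 controls (adjusted p = 0.0511 to 0.136 by edgeR). In SUZ12 KO its levels overlapped the controls, at a log2 difference of 0.84 ± 0.46 (adjusted p = 0.218 by edgeR).

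IGFBP3 (chr7:45912245-45921874, minus strand), the main carrier of IGFs in serum, stood at 1.53, 0.701 and 0.665 CPM in controls. It was at 6.85, 1.30 and 3.75 CPM in EZH2 KO and at 4.61, 3.25 and 4.03 CPM in SUZ12 KO. The SUZ12 KO clones were all above the controls, and the second EZH2 KO clone was not. Neither difference passed (log2 2.11 ± 0.83, adjusted p = 0.111, and log2 2.10 ± 0.83, adjusted p = 0.0979, by edgeR). With only the controls and the arm concerned in the fit, both did (adjusted p = 0.0398 and 0.00414).

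The other 4 members were not called in either arm. IGF1R (chr15:98648539-98964530, plus strand) was 36.5 to 41.9 CPM in controls, 33.8 to 44.2 in EZH2 KO and 47.8 to 60.4 in SUZ12 KO, which lay above the controls (log2 0.48 ± 0.20, adjusted p = 0.117 by edgeR). IGF2R (chr6:159969082-160113507, plus strand) was 166 to 245 CPM in controls, 107 to 200 in EZH2 KO and 118 to 174 in SUZ12 KO. IGFBP5 and IGFBP7 overlapped their controls in both arms.

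**Figure D2:**
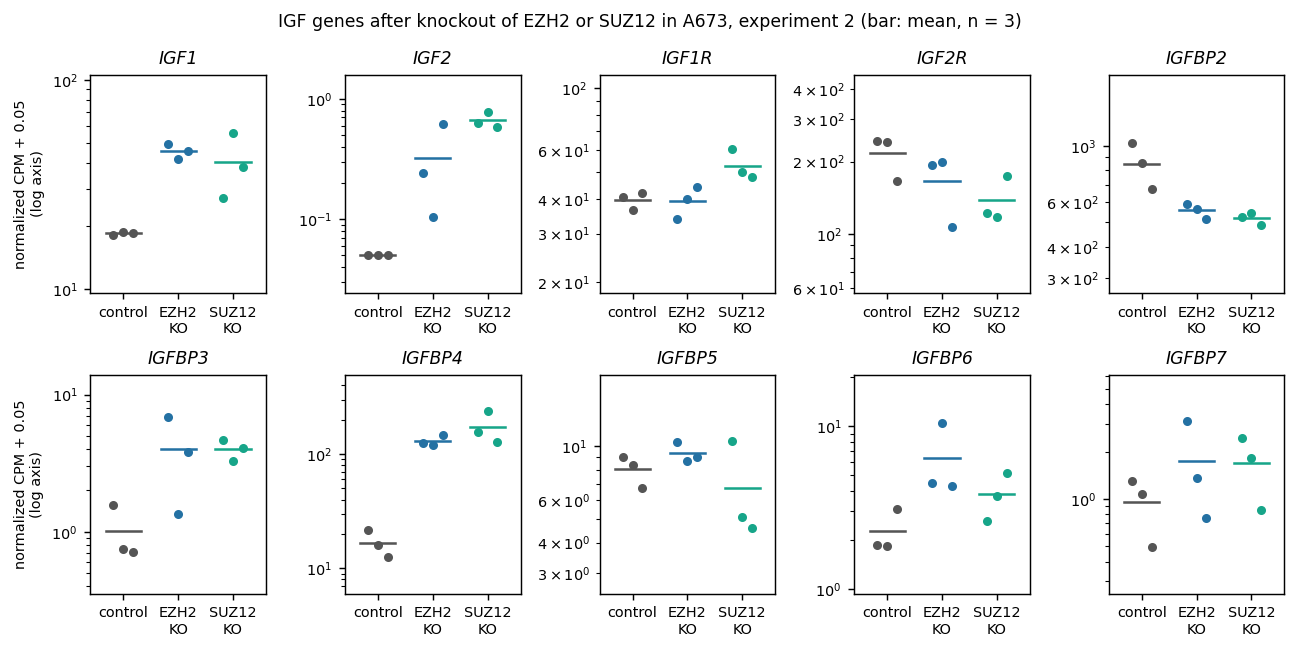
Points are libraries and bars are means of 3 libraries of the control, EZH2 KO and SUZ12 KO arms of experiment 2, as normalized CPM plus 0.05 on a log axis, in 1 panel per gene. IGFBP4 shows a wide gap between controls (12.5 to 21.6 CPM) and knockouts (120 to 237 CPM), IGF1 shows a smaller one, IGF2 rises from 0 reads, and IGFBP2 lies lower in both knockouts.

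The knockouts of EZH2 and SUZ12 were also compared with each other, without the controls. Of the 10 members, 0 differed (edgeR, 0 at an unadjusted p under 0.05, and 0 by DESeq2), where 0.00661% of all genes tested were called. The difference, EZH2 KO minus SUZ12 KO, was -0.39 ± 0.28 on the log2 scale for IGFBP4, 0.19 ± 0.22 for IGF1 and 0.11 ± 0.16 for IGFBP2. For IGFBP3 and IGFBP6 the SE was 0.78 and 0.45, so only a large difference would have been seen. Mesenchymal stromal markers differed in these arms. Of 10 tested, 2 were called lower after EZH2 KO and 5 after SUZ12 KO (edgeR), and 0 higher in either. Their medians were -1.02 and -1.59 on the log2 scale. The 10 together, of which FN1 had the highest mean, summed to 2959 to 3961 CPM in EZH2 KO and 2352 to 2527 in SUZ12 KO. The sums over all controls of experiments 1 to 3, not of experiment 2 alone, were 5869 to 17244 CPM. Endothelial markers summed to at most 6.45 CPM. Their part in the IGF values was not tested.

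Among the other genes of the pathway, 55 of 64 listed were tested in these arms. After EZH2 KO 7 were higher and 4 lower, and after SUZ12 KO 9 were higher and 5 lower. These are 20% and 25.5% of the pathway genes, near the 15.7% and 20.6% of all genes. The secreted regulators gave 3 of 8 and 4 of 8 higher, with medians of 1.07 and 1.16 on the log2 scale. The 18 receptors and adaptors gave 3 higher and 2 lower after EZH2 KO, and 3 higher and 3 lower after SUZ12 KO. The 26 PI3K, AKT and FOXO genes gave 1 higher and 2 lower after EZH2 KO, and 2 higher and 1 lower after SUZ12 KO. PCSK6, a proprotein convertase, was 1.98 to 2.05 CPM in controls, 19.2 to 32.7 in EZH2 KO and 33.2 to 37.8 in SUZ12 KO (log2 3.83 ± 0.47, adjusted p = 0.00046, and log2 4.22 ± 0.48, adjusted p = 0.000198, by edgeR). FOXO4, a transcription factor that AKT keeps out of the nucleus, was 4.88 to 5.95 CPM in controls, 18.1 to 31.7 in EZH2 KO and 20.3 to 51.8 in SUZ12 KO (log2 2.33 and 2.63). Exons of PCSK6 overlap SNRPA1, and reads of such pairs cannot be told apart in these libraries.

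The STAG2 KO comparison asked which IGF genes differ when cells lose the cohesin subunit that Ewing sarcomas mutate. Over experiments 1 and 2, IGFBP2 fell and IGFBP6 and IGF1R rose. That is 3 of the 8 members tested, where 12.4% of 13574 genes were called (edgeR, experiment fitted as a term). The median of the 8 was 0.23 on the log2 scale and that of all genes 0.04. IGF2 and IGFBP7 had too few reads to be tested.

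IGFBP2 stood at 1104, 1072 and 674 CPM in the controls of experiment 1, in the order WT clone a, WT clone b and parental, and at 455 and 391 in STAG2 KO. In experiment 2, whose controls are given above, the STAG2 KO clones held 441, 360 and 491 CPM. All 5 STAG2 KO libraries were below all 6 controls. The level was 2.03-fold lower (log2 -1.02 ± 0.17, adjusted p = 0.00262 by edgeR). Experiment 1 alone gave -1.16 (adjusted p = 0.0238) and experiment 2 alone -0.93 (adjusted p = 0.0512, edgeR).

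IGFBP6 stood at 1.51, 1.21 and 1.81 CPM in the controls of experiment 1 and at 4.89 and 6.18 in STAG2 KO, and the clones of experiment 2 held 3.62, 3.70 and 6.51. No STAG2 KO library overlapped a control, the nearest being the parental library of experiment 2 at 3.05. The level was 2.75-fold higher (log2 1.46 ± 0.28, adjusted p = 0.00704 by edgeR). Experiment 1 alone gave 1.87 (adjusted p = 0.0155) and experiment 2 alone 1.10 (adjusted p = 0.161, edgeR).

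IGF1R, the signalling receptor, was 68.2, 63.4 and 68.4 CPM in the controls of experiment 1 and 93.3 and 107 in STAG2 KO. The STAG2 KO clones of experiment 2 held 48.0, 72.1 and 41.7 CPM, and the last of them lay within the control range of 36.5 to 41.9. The level was 1.47-fold higher in the joint fit (log2 0.55 ± 0.14, adjusted p = 0.0242 by edgeR). This call was the least stable of the 3: it was lost with the 2 near-identical WT clone libraries of experiment 1 summed into 1 (adjusted p = 0.0547) and with any of 5 single libraries left out (adjusted p up to 0.0775). These were both WT clone libraries of either experiment and STAG2 KO 24.

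IGFBP5 (chr2:216672105-216695549, minus strand), an extracellular matrix-bound binding protein whose gene ends 7668 bases from that of IGFBP2, gave no common direction. Its exons overlap DIRC3-AS1 on the other strand. It was 34.3, 34.4 and 20.5 CPM in controls of experiment 1 and 17 and 1.97 in STAG2 KO. In experiment 2 the controls held 9.01, 8.35 and 6.65 CPM and the STAG2 KO clones 10.3, 70.4 and 5.85. The single clone 5 of experiment 2 thus stood at 70.4, above every control of both experiments. A STAG2 KO library numbered 5 in experiment 1 held 17 CPM. The titles name different clones in each experiment, but that library could not be matched to a title. The joint estimate was a log2 of 0.52 ± 0.99 (adjusted p = 0.801 by edgeR), and without clone 5 it was -0.76. Whether the STAG2 effect differed between the experiments was tested as a term. Of the 8 members tested 0 were called, in a fit that called 0 genes in all (0% of 13574, edgeR), against 2249 genes by DESeq2, which called 0 of the members. IGFBP5 was the only member at an unadjusted p under 0.05 (0.0262).

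The remaining members were not called. IGF1 was 13.1 to 19.1 CPM in the 6 controls and 11.3 to 18.7 in STAG2 KO (log2 -0.05 ± 0.17). IGF2R was 166 to 265 against 143 to 226 CPM, IGFBP4 12.5 to 24.8 against 7.29 to 19.96, and IGFBP3 0.207 to 1.53 against 0.104 to 2.62. IGFBP7 (chr4:57030773-57110385, minus strand), a low-affinity IGF binder of the matrix whose exons overlap IGFBP7-AS1 and POLR2B, held 22, 16 and 8 reads in the controls of experiment 2 and 4, 0 and 3 in the STAG2 KO clones. In experiment 1 all 5 libraries held at most 4 reads. Of the 10 mesenchymal stromal markers 2 were called higher and 5 lower (edgeR), with a median of -1.54 on the log2 scale. They summed to 1019 to 3183 CPM in STAG2 KO, and their part in these values was not tested.

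Of the other pathway genes 51 were tested in this fit, of which 6 were higher and 5 lower, or 21.6% against 12.4% of all genes. All 4 calls among 16 receptors and adaptors were lower. The PI3K, AKT and FOXO genes gave 4 higher and 1 lower of 26. The secreted regulators gave 1 higher of 6, and the IGF2 mRNA binding proteins with H19 gave 1 higher of 3. The genes named next, picked by size of change, were all lower. INPP5D, the phosphatase SHIP1 that removes the product of PI3K, was 2.66 to 6.12 CPM in controls of experiment 2 and 0.367 to 1.93 in STAG2 KO, and 6.01 to 12.2 against 0.0562 to 0.518 in experiment 1 (log2 -3.23 ± 0.74, adjusted p = 0.0159 by edgeR). INPP5D was also called between the kinds of control, WT clone minus parental (log2 0.88 ± 0.16, adjusted p = 0.0208 by edgeR). SOCS2, an inhibitor of cytokine and growth hormone signalling, fell by 1.38 on the log2 scale. IRS2, a substrate that docks PI3K to IGF1R and the insulin receptor, was 284 to 320 CPM in controls of experiment 2 and 151 to 271 in STAG2 KO (log2 -0.71 ± 0.20, adjusted p = 0.0402 by edgeR).

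**Figure D3:**
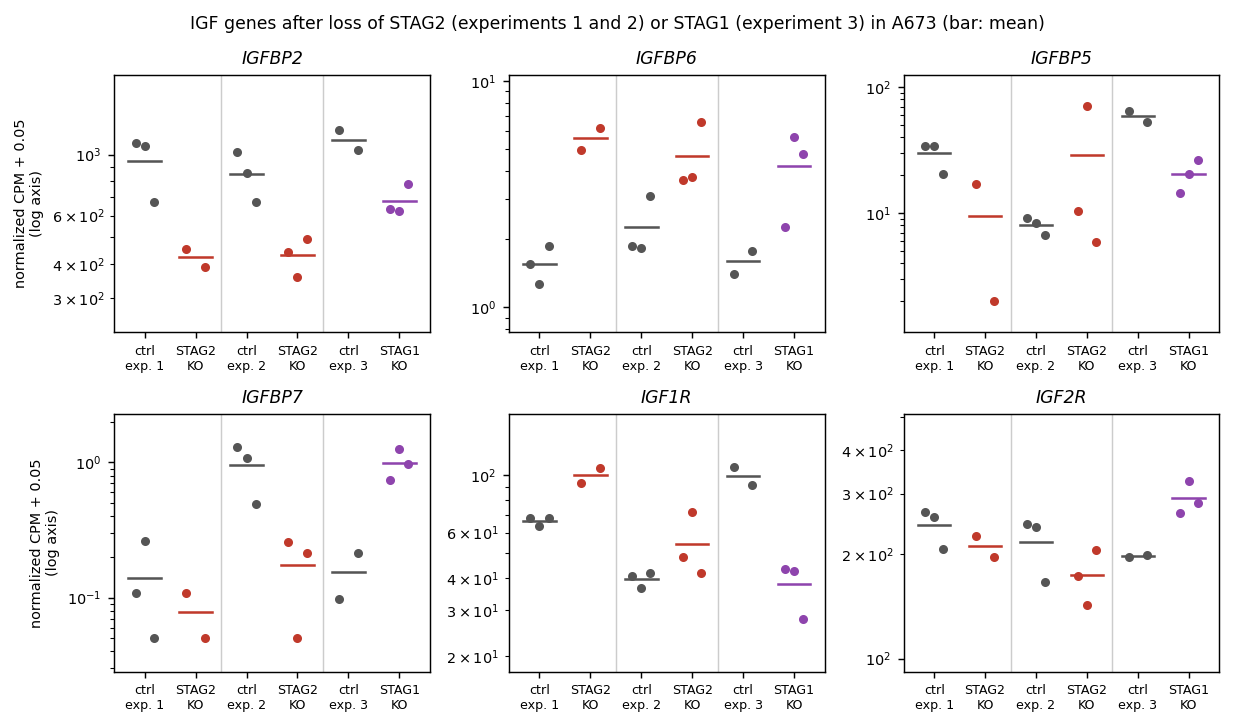
Points are libraries and bars are arm means, as normalized CPM plus 0.05 on a log axis, for 6 genes in the control and STAG2 KO arms of experiments 1 and 2 and the control and STAG1 KO arms of experiment 3. IGFBP2 lies lower in each knockout arm, IGF1R lies lower in STAG1 KO (27.9 to 43.4 CPM) than in its controls, and IGFBP5 has 1 STAG2 KO clone at 70.4 CPM.

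Acute depletion of STAG2 by siRNA was set beside its stable loss. IGFBP2, IGF1 and IGFBP4 fell, which makes 3 of 7 members tested, where 20.5% of 12060 genes were called (limma on log2 of the value plus 1, adjusted p under 0.05). Values are reads divided by 1 factor per library and are not compared between genes here, since the library type of this table is not clear from its labels. IGFBP2 was 4120, 3336 and 3763 normalized reads in siC and 2842, 2349 and 2130 in siSTAG2. The 2 arms did not overlap, and the fold change was 0.650 (log2 -0.62 ± 0.08, adjusted p = 1.86e-06 by limma). IGF1 was 175, 183 and 217 in siC and 113, 109 and 144 in siSTAG2 (log2 -0.65 ± 0.12, adjusted p = 0.000398 by limma). IGFBP4 was 61.0, 55.1 and 83.3 in siC and 51.0, 37.1 and 42.5 in siSTAG2, all lower but close (log2 -0.59 ± 0.19, adjusted p = 0.0316 by limma). Without siC 3 it was not called (log2 -0.42), nor without siSTAG2 2 or 3 (log2 -0.48 and -0.58).

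Near the threshold after knockdown were IGFBP6 and IGF2R. IGFBP6 stood at 23.8, 40.3 and 19.8 in siC and 53.3, 40.8 and 36.7 in siSTAG2, which overlapped (log2 0.67 ± 0.25, adjusted p = 0.0597 by limma). IGF2R was 174, 154 and 183 against 128, 142 and 142 (log2 -0.31 ± 0.11, adjusted p = 0.0558 by limma), with no overlap. IGF1R was 157, 144 and 186 against 165, 168 and 190 (log2 0.11 ± 0.12), and IGFBP5 16.7 to 34.4 against 23.3 to 31.5. IGF2, IGFBP3 and IGFBP7 had at most 2 reads in each library and were not tested. The 10 mesenchymal stromal markers moved with this arm, 7 lower and 2 higher with a median of -0.95 on the log2 scale, and their part in the IGF values was not tested. Of 46 other pathway genes 1 was higher and 4 were lower, or 10.9%, where 20.5% of all genes were called. PAPPA, the protease of IGFBP4, was 1698 to 1961 in siC and 1278 to 1398 in siSTAG2 (log2 -0.48 ± 0.06). INSR, the insulin receptor, was 255 to 290 against 146 to 238 (log2 -0.42 ± 0.13). IGF2BP2, an RNA-binding protein named for its IGF2 mRNA target, was 852 to 950 against 1101 to 1166 (log2 0.35 ± 0.06).

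STAG1 KO was examined as the loss of the other cohesin subunit. Of 8 members tested 4 were called: IGF1R, IGFBP5 and IGFBP2 fell and IGF2R rose. Of 14373 genes tested 5.27% were called. IGF2 and IGFBP3 had too few reads to be tested. The calls rest on few libraries: without either of the 2 controls 0 members and 0 genes were called, without STAG1 KO 5 the members called were again 0, and without STAG1 KO 7 they were 3. Without the library numbered 1, whose STAG1 lay in the control range, 6 members were called.

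IGF1R was 108 and 91.5 CPM in the parental and WT clone controls and 43.4, 42.6 and 27.9 in STAG1 KO (log2 -1.39 ± 0.20, adjusted p = 0.0268 by edgeR). The controls of this experiment were above those of the other experiments (36.5 to 68.4), and the STAG1 KO libraries lay near the controls of experiment 2. IGFBP5 behaved likewise, at 64.5 and 52.9 CPM in the controls, 14.3, 20.3 and 26.3 in STAG1 KO (log2 -1.53 ± 0.25, adjusted p = 0.0318 by edgeR), and 6.65 to 34.4 in the controls of the other experiments. IGFBP2 was 1226 and 1042 CPM in controls and 633, 626 and 784 in STAG1 KO (log2 -0.74 ± 0.13, adjusted p = 0.0386 by edgeR). IGF2R was 197 and 199 CPM in controls and 264, 327 and 283 in STAG1 KO (log2 0.56 ± 0.11, adjusted p = 0.049 by edgeR).

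The other 4 tested members were higher on average. IGFBP7 had 1 and 3 reads in the controls and 11, 22 and 18 in STAG1 KO, at an adjusted p of 0.0503 (edgeR). It passed with RLE size factors (0.0498), with DESeq2 (0.0281) and with no filter (0.0400), and it entered the fit through the STAG1 KO libraries, where it is high. IGFBP6 was 1.36 and 1.73 CPM in controls and 2.21, 5.62 and 4.72 in STAG1 KO, and IGF1 was 13 and 17.7 against 29.2, 18.3 and 33.9 (adjusted p = 0.127 and 0.157 by edgeR). IGFBP4 was 10.5 and 18.9 against 34.8, 16 and 30.0 CPM and overlapped. Of the 10 mesenchymal stromal markers 3 were called higher and 1 lower (edgeR), with a median of 0.35 on the log2 scale. They summed to 11545 to 17571 CPM in STAG1 KO, and their part was not tested. Among 55 other pathway genes 3 were higher and 3 lower, or 10.9% against 5.27% of all genes. STC1, an inhibitor of PAPPA, was 34.0 to 34.9 CPM in controls and 9.85 to 18.8 in STAG1 KO (log2 -1.28 ± 0.26). INPP5D was 6.11 to 8.71 against 15.3 to 18 (log2 1.21 ± 0.22), and SHC1, an adaptor of the receptor, 251 to 269 against 375 to 399 (log2 0.58 ± 0.08).

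The effects of losing STAG2 and STAG1 were compared as a difference of effects over the 16 libraries of controls, STAG2 KO and STAG1 KO. Of 9 members tested 3 differed, where 6.11% of 14696 genes did (edgeR). The effect on IGF1R was higher for STAG2 by 1.90 ± 0.26 on the log2 scale (adjusted p = 0.000902). For IGF2R the difference was -0.82 ± 0.22 (adjusted p = 0.0424), and for IGFBP7 it was -5.62 ± 1.28 (adjusted p = 0.0186). IGFBP7 was too low for the STAG2 KO fit and passed the filter here with the STAG1 KO libraries, where it is high, so its call carries no weight of its own. The IGF2R difference was lost with any of 11 of the 16 libraries left out and that of IGFBP7 without either control of experiment 3 (adjusted p = 0.166 and 0.0756), while that of IGF1R was not lost in these fits. For IGFBP2 it was -0.32 ± 0.27 (adjusted p = 0.592) and for IGFBP6 -0.01 ± 0.52 (adjusted p = 0.996), which leaves differences of the size of an SE unresolved. INPP5D, named above, also differed, by -4.46 ± 1.04.

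**Figure D4:**
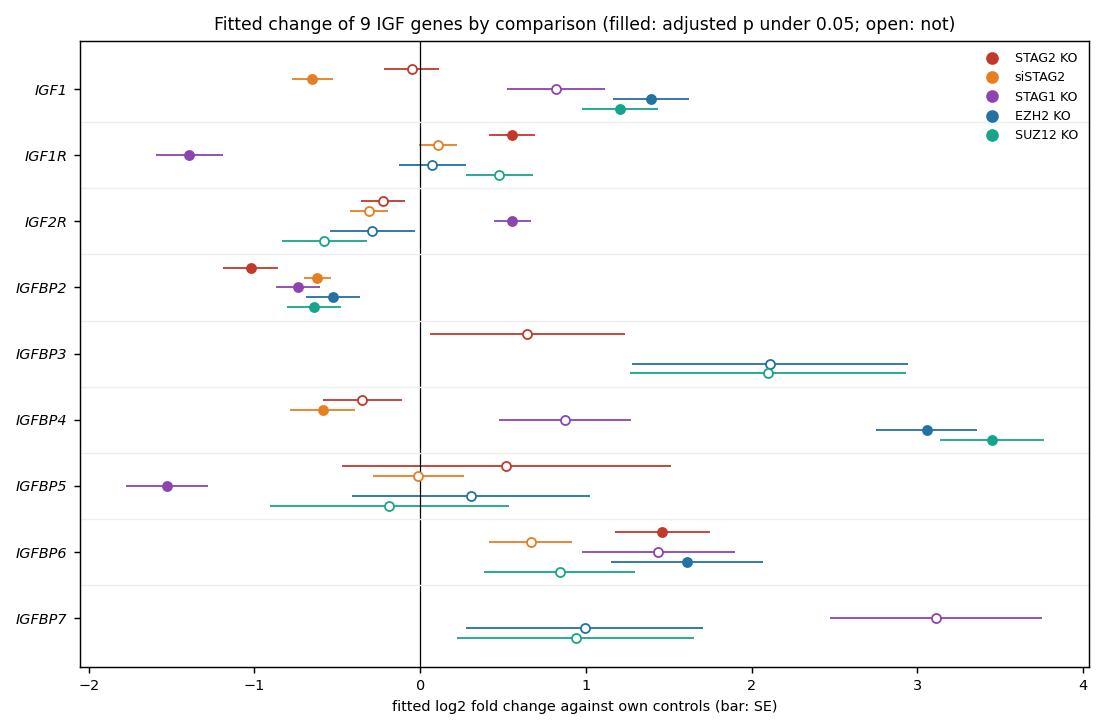
Points are fitted log2 fold changes of 9 genes against the controls of each comparison and bars are 1 SE, filled where the adjusted p is under 0.05. IGF2 is left out because its controls were at 0. IGFBP2 is filled and below 0 in all 5 comparisons, and IGFBP4 is near 3 in the EZH2 and SUZ12 knockouts alone.

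IGFBP2 was called lower in each of the 5 replicated comparisons, of which STAG2 KO, EZH2 KO and SUZ12 KO share the controls of experiment 2. Its estimates lay between -1.02 and -0.52 on the log2 scale. With 1 library left out, the call was lost in 5 of 6 fits for EZH2 KO, 2 of 6 for SUZ12 KO and 3 of 5 for STAG1 KO. It was lost in 0 of 11 for STAG2 KO and 0 of 6 for siSTAG2. Between the 2 kinds of control, the log2 difference of IGFBP2, WT clone minus parental, was 0.35 ± 0.15 (adjusted p = 0.282 by edgeR). Among 8 members tested between the 2 kinds of control, 1 was called (IGFBP4, above), where 2.72% of genes were.

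In the isogenic pairs, compared as log2 CPM ratios, the level without STAG2 is set against that with STAG2. Each condition was 1 library, so the intervals are exact 95% counting intervals, cover counting error only, and carry no test. Log2 ratios printed with an interval are plain ratios, while members past 2-fold were counted from ratios with a prior count of 2. Members past 2-fold numbered 4 of 10 in SK-N-MC, where 21.6% of 16413 genes were, and 4 of 10 in A4573, where 21.8% of 16124 were. IGF1 and IGFBP3 were higher and IGFBP7 lower without STAG2 in both lines, IGFBP2 was lower in SK-N-MC, and IGF2 was lower in A4573.

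IGF1 was 175 CPM without and 46.4 with STAG2 in SK-N-MC (5349 and 1530 reads), a 3.77-fold difference with a log2 ratio of 1.92 (interval 1.83 to 2.0). In A4573 it was 18.6 without and 5.25 with STAG2, a log2 ratio of 1.82 (1.57 to 2.08). IGFBP3 was 36.7 and 9.20 CPM in SK-N-MC (log2 2.0, 1.81 to 2.19) and 4.25 and 1.496 in A4573 (log2 1.51, 1.01 to 2.02). IGFBP7 was 8.19 CPM without and 73.2 with STAG2 in SK-N-MC (log2 -3.16, -3.35 to -2.97), and 2.09 and 4.71 in A4573 (log2 -1.17, -1.62 to -0.74).

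IGFBP2 was 21.7 CPM without and 161 with STAG2 in SK-N-MC, where 663 and 5305 reads were counted (log2 -2.89, -3.01 to -2.77). In A4573 it was 254 and 320 CPM (log2 -0.33, -0.38 to -0.29). IGF2 had 4 reads without and 32 with STAG2 in A4573 (plain log2 -2.94, -4.90 to -1.44, and -2.46 with a prior count of 2). In SK-N-MC it had 22 and 11 reads, a plain log2 ratio of 1.11 (0.0041 to 2.30). With a prior count of 2 that ratio stayed under 2-fold (log2 0.98). IGF1R was 27.2 and 15.5 CPM in SK-N-MC (log2 0.81) and 66.9 and 43.0 in A4573 (log2 0.64). IGF2R was lower without STAG2 in both, at 177 and 224 CPM in SK-N-MC and 148 and 217 in A4573. IGFBP4, IGFBP5 and IGFBP6 stayed within 2-fold in both lines.

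With IGFBP2 and IGFBP7 lower, the binding protein share of IGFBP4 in SK-N-MC was 22.3% with and 53.3% without STAG2, and that of IGFBP3 was 1.44% and 10.4%. Other differences moved with this pair: the 10 mesenchymal stromal markers summed to 4782 CPM in SK-N-MC WT and 327 in SK-N-MC STAG2 KO, and PTPRC, a haematopoietic marker, reached 58.2 CPM in the latter while the other 3 of its list stayed under 1. In A4573 the stromal markers summed to 977 without and 2780 CPM with STAG2. By gene, 1 of the 10 was higher and 5 lower past 2-fold without STAG2 in SK-N-MC. In A4573 8 had enough reads, of which 0 were higher and 2 lower. Their part in the IGF values was not tested.

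Of 60 other pathway genes past the read minimum in each pair, 6 were higher and 9 lower than 2-fold without STAG2 in SK-N-MC, and 1 was higher and 13 were lower in A4573. These are 25% and 23.3%, near the 21.6% and 21.8% of all genes. Over all genes 1669 were higher and 1869 lower in SK-N-MC, and 1252 were higher and 2271 lower in A4573. In A4573, PAPPA was 32.3 CPM without and 188 with STAG2, STC2, another inhibitor of PAPPA, 31.7 and 226, and PIK3CD, a catalytic subunit of PI3K, 4.45 and 16. In SK-N-MC, HTRA1, a protease that cleaves binding proteins, was 0.426 and 5.74 CPM, H19, the imprinted transcript beside IGF2, 3.90 and 42.9, and GRB14, an inhibitory adaptor of insulin receptors, 2.95 and 0.212. Exons of PAPPA, PIK3CD, SOCS2, SHC1, H19, INPP5D, IRS2 and HTRA1 also overlap another gene.

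**Figure D5:**
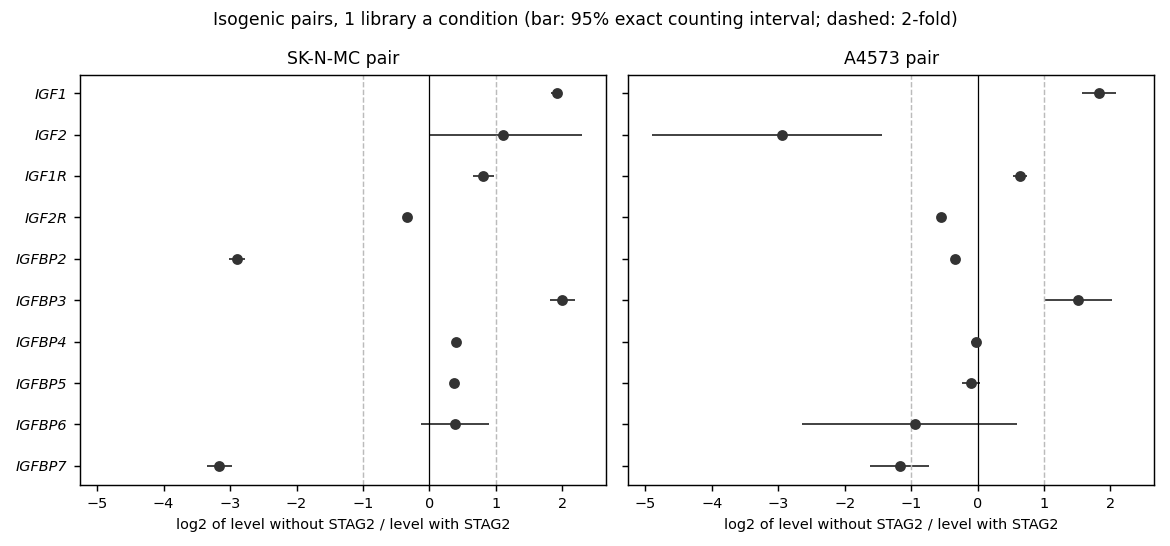
Points are the log2 ratio of the level without STAG2 to that with STAG2 in SK-N-MC and A4573, with no prior count. Bars are exact 95% counting intervals, and dashed lines mark 2-fold. IGF1 and IGFBP3 lie right of 1 in both lines, IGFBP7 lies left of -1 in both, and IGFBP2 is at -2.89 in SK-N-MC and at -0.33 in A4573.

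IGF1 therefore stood differently by setting: higher without STAG2 in the 2 isogenic pairs, called lower after knockdown, and 13.1 to 19.1 CPM against 11.3 to 18.7 between A673 controls and STAG2 KO clones. IGFBP2 without STAG2 was lower in A673, by knockout and by knockdown, and in SK-N-MC. Lines and culture differ between these settings, the library type of the knockdown is not clear, and no test across them was made.

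The genes with the pattern most like that of each member were listed as a description, by the Pearson correlation of log2 CPM minus the mean of the controls of the same experiment, over 14 knockout libraries and 11039 genes. The libraries share arms and controls. IGFBP4 was nearest to EPOR (0.98) and ADRA2C (0.98), IGF1 to PTPN7 (0.96) and PRR14 (0.94), IGF1R to DENND5B (0.96) and ABCC1 (0.96), and IGF2R to PHF10 (0.94) and ARHGEF40 (0.93). IGFBP2 was nearest to ADRB1 (0.94) and XKR4 (0.91), and IGFBP5 to DGKA (0.95) and TMEM254 (0.95). Between the members, IGF1 and IGFBP4 gave 0.85 and IGF1R and IGF2R -0.80.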

How the data were processed

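RNA was measured in 32 samples of 3 cell lines, and per the labels and the methods the authors made oligo-dT, non-directional libraries and aligned 86-nt single-end reads to hg38 with TopHat2 2.0.0 and Bowtie 0.12.7. Whether the knockdown libraries were of this type was not clear. The counting program and annotation are not given in the sources used here. The deposited values of experiments 1 to 3 and the isogenic pairs are counts per gene symbol, and the deposited values of the knockdown are a signal, reads divided by 1 factor per library. From that signal 100% of values gave whole reads (within 1e-06 of a read).

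Counts were fitted in R 4.3.3 with edgeR 4.0.16 (TMM, filterByExpr, quasi-likelihood test), with experiment as a term where experiments were joined and all 12 libraries of experiment 2 in 1 fit. The knockdown was fitted with limma 3.58.1 (trend) on log2(value + 1) for genes with a mean of at least 10. Calls are at a Benjamini-Hochberg adjusted p under 0.05 over all genes tested. Pairs were compared as log2 CPM ratios with a prior count of 2 for genes with at least 10 counts. Pair ratios printed with an interval use no prior count. Levels are CPM after TMM, and per kilobase of the MANE transcript in GENCODE 44. Alternatives included DESeq2 1.42.0, no filter, other controls and leaving out each library. The fits were tested on simulated data. Fold bounds against controls at 0 used a floor of 3 reads per library.

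The 10 genes and the gene lists were chosen with earlier results of these data known. Pathway genes named are the 3 with the largest change among those called whose mean level was 5 CPM or more (50 in the knockdown). Of these, 1 gene is not reported here. The single libraries of STAG2 KO in experiment 1 and of STAG1 KO could not be matched to clone titles and were used as groups. A STAG2 KO library of experiment 1 is numbered 5, as is a clone of experiment 2, although the titles name different clones.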

Additional observations from a re-analysis of the deposited data

Results flagged for a closer look

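By a test of the difference of the effects (edgeR), IGF1R, IGF2R and IGFBP7 differed between the loss of STAG2 and the loss of STAG1. For IGF1R the difference, STAG2 minus STAG1, was 1.90 on the log2 scale (adjusted p = 0.000902). For IGF2R it was -0.82 (adjusted p = 0.0424), and for IGFBP7 it was -5.62 (adjusted p = 0.0186). IGFBP7 passed the filter on low counts with the STAG1 KO libraries, where it is high, and was not tested in the STAG2 KO fit, so its value is a description. Only the 2 controls of experiment 3 stand on the STAG1 side of these values. Members with enough reads were examined for a single library far from the rest. This was done in the controls of experiments 1 and 2 and in the STAG2 KO libraries, as 16 sets of values. In these sets 0 were found, where chance alone would mark about 1 in 20 if the libraries of a set were alike. Both experiments were pooled, which widens the range and can hide such a library. The other arms were not examined.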

How the results depend on the processing

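The 98 member results gave 1051 values under alternatives, of which 931 kept direction and side of the threshold. The changes of IGFBP4 and IGF1 after EZH2 or SUZ12 KO and of IGF1 and IGFBP2 after siSTAG2 kept both under each alternative run. DESeq2 called 2621 genes for STAG2 KO, 1954 for STAG1 KO, 22 between EZH2 and SUZ12 KO, 2249 between experiments, 1541 between STAG2 and STAG1 effects and 631 between WT clone and parental. With no filter the EZH2 and SUZ12 KO differed in 5 genes and WT clone and parental in 741. STAG2 KO gave 3663 genes in experiment 1 alone and 494 in experiment 2 alone, where 0 members were called. With the WT clone as only control EZH2 KO called 3 members and 1441 genes. The replicate block in the knockdown gave 5 members, adding IGF2R and IGFBP6 (adjusted p = 0.0425 and 0.0337 by limma). The labels do not say whether same-numbered libraries there were paired. Their deviations correlated at 0.0040 to 0.037, which cannot decide it, since counting error lowers such correlations. The cause of these shifts was not tested. IGFBP3 between EZH2 and SUZ12 KO turned to -0.0105 with RLE and -0.0116 with DESeq2. IGF1 after STAG2 KO turned to 0.23 in experiment 1 alone and 0.035 with the WT clone as only control, and IGFBP5 to -1.64 in experiment 1 alone. Leaving out 1 library, genes called ranged from 1053 to 4048 for STAG2 KO (without WT clone 1 and STAG2 KO 5 of experiment 2), 0 to 1310 for STAG1 KO (0 to 6 members), 1169 to 1760 for EZH2 KO (2 to 3 members) and 1874 to 3238 for SUZ12 KO. They ranged from 1 to 2 between EZH2 and SUZ12 KO, 0 to 1440 between experiments, 195 to 1860 between STAG2 and STAG1 effects (1 to 3 members) and 98 to 953 between WT clone and parental (0 to 4 members). In the knockdown 2 to 5 members were called. Log2 estimates crossed 0 for IGF1 (-0.13 to 0.046) and IGFBP5 (-0.76 to 1.23) after STAG2 KO, IGF1R after EZH2 KO (-0.017 to 0.17), IGFBP5 after SUZ12 KO (-0.66 to 0.0066) and IGFBP5 after siSTAG2 (-0.32 to 0.18). They also crossed 0 for IGF1 (-0.029 to 0.48), IGFBP3 (-0.63 to 0.43) and IGFBP7 (-0.69 to 0.43) between EZH2 and SUZ12 KO, IGF1R (-0.36 to 0.042) and IGF2R (-0.24 to 0.059) between experiments, IGFBP3 (-2.24 to 0.58) and IGFBP6 (-0.32 to 0.26) between STAG2 and STAG1 effects, and IGF1 (-0.29 to 0.18) and IGFBP5 (-0.00068 to 0.57) between WT clone and parental. None of these was a call. Calls lost in these fits were those of IGFBP2 (5 of 6), IGF2 (5 of 6) and IGFBP6 (4 of 6) after EZH2 KO, IGFBP2 after SUZ12 KO (2 of 6), IGF1R after STAG2 KO (5 of 11), IGF1R, IGFBP2 and IGFBP5 (3 of 5 each) and IGF2R (4 of 5) after STAG1 KO, and IGFBP4 after siSTAG2 (3 of 6) and between WT clone and parental (4 of 8). Between STAG2 and STAG1 effects IGF2R was lost in 11 of 16 and IGFBP7 in 2 of 16. Depth limits IGF2, IGFBP3 and IGFBP7 most. The summed WT clone libraries were an alternative chosen after seeing the data.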
